A study of Drosophila melanogaster with 4 samples.

Results

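Chaperones, the proteasome, the COP9 signalosome and deubiquitinating enzymes were examined in heads of unmated Drosophila melanogaster males fed tetraethylammonium chloride (TEA), a blocker of potassium channels. The members were all array probes whose gene symbol began with Hsp, Hsc70, CCT, DnaJ, Rpn, Rpt, Prosalpha, Prosbeta, CSN or Usp, or was Droj2, l(2)efl or trbd. These were 85 of 13824 probes, under 68 symbols. TEA flies, of the Oregon-R wild-type strain and 3 to 4 days old at the start, ate food with 16 mg/ml TEA for 7 days. Control flies of the same strain, sex and age ate normal food over that time. Flies were kept at 30 per vial and heads were pooled from several vials. Each of 4 biological replicates set 1 TEA pool against 1 normal-food pool on a 2-colour cDNA array. The TEA pool carried Cy5 in replicates 1 and 2, called the Cy5 arrays here, and Cy3 in replicates 3 and 4, called the Cy3 arrays.

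Chaperones hold unfolded proteins and help them fold. Small heat shock proteins bind unfolding proteins, Hsp70 refolds them in cycles that J-domain proteins start, and the CCT ring folds actin and tubulin. Proteins that cannot be rescued are tagged with ubiquitin and cut in the proteasome, a barrel-shaped core capped by a regulatory particle, while deubiquitinating enzymes remove the tag and the COP9 signalosome switches off the cullin family of ubiquitin ligases. In neurons these systems also set the amounts of synaptic proteins.

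Every value is a log2 ratio of TEA over normal food, where 0 means equal levels. No label gives the direction of the deposited ratio. Cy5 was taken as the numerator, and replicates 3 and 4 were turned in sign. If the ratio ran the other way on every array, all signs would turn, and values with the swapped arrays not turned stand with the processing alternatives. Of the 27648 spots on an array, 5445 to 6252 held a value. Over all 3150 tested probes the array medians were -0.09, -0.08, 0.24 and 0.06 in replicates 1 to 4, and Spearman correlations between arrays lay between -0.17 and 0.46 across probes, which are not independent replicates. As a check of the tissue, 4 of 6 eye genes on the array had a tested probe, as did 4 of 5 fat body genes, 2 of 3 muscle genes and 1 of 4 glial genes. The neuronal markers nSyb and Rop had no value, and among 6 marker genes of other tissues (gonads and yolk) only the yolk protein gene Yp2 was tested. In pooled heads, fewer cells of a type and less RNA per cell cannot be told apart.

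Few members were measured, at about the rate of all probes naming 1 gene. The share differed between classes, which held only 2 to 17 probes each. Of the 85 probes, 16 were measured on 3 or 4 arrays and were tested, 1 had a value on 2 arrays and 68 had none on any array. The tested share was 18.8%, against 19.1% of the 7558 probes that named exactly 1 gene. The authors emptied spots that failed filters on signal and spot quality, so a missing value does not say that the gene is silent. No probe of the Hsp70 and Hsp60 families (Hsc70-1, Hsc70-2, Hsc70-5, Hsp60C, Hsp60D, Hsp68 and a probe shared by Hsp70Aa and Hsp70Ab) had a value, nor had any of the CCT chaperonin (CCT1, CCT2, CCT3, CCT4, CCT5, CCT7 and CCT8). These were 16 probes in all. No other array symbol beginning with Hsp or Hsc70 belonged to the Hsp70 and Hsp60 families. Further genes of these families were therefore not examined. The heat-inducible small chaperone Hsp26 and the J-domain genes DnaJ-H and DnaJ-60 also had none.

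**Figure D1:**
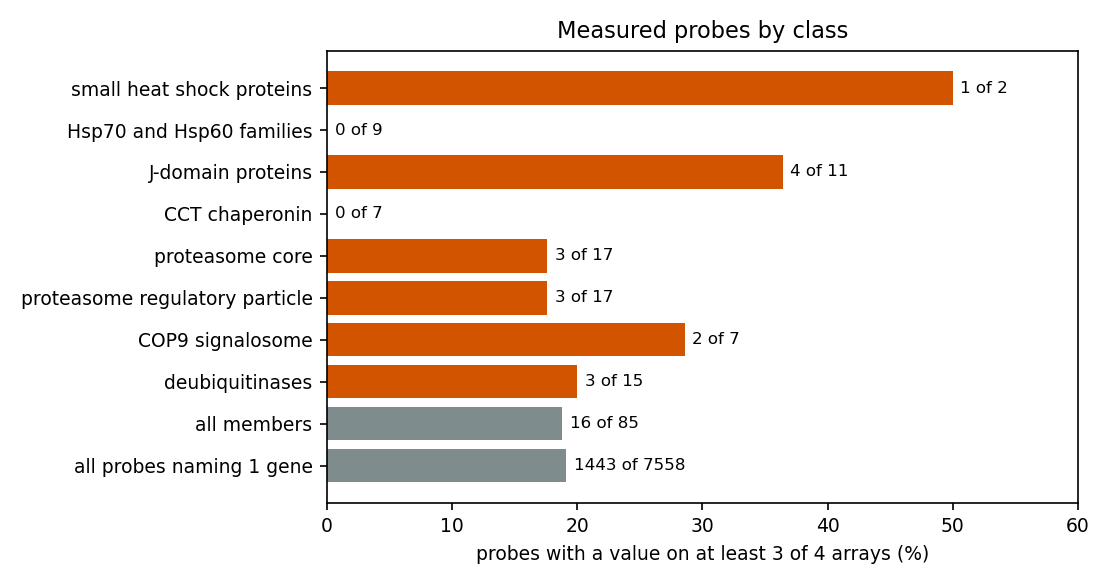
Share of probes measured on 3 or 4 arrays, in percent on the horizontal axis, for each class, for all 85 members and for all probes naming 1 gene. The Hsp70 and Hsp60 families and the CCT chaperonin stand at 0 of 9 and 0 of 7 probes, and the J-domain proteins at 4 of 11.

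A value on any array was held by 17.6% of the core probes and 17.6% of the regulatory particle probes, against 19.4% of probes naming 1 gene. Of the 34 proteasome probes, 28 had no value. They included all 11 probes for variant subunits encoded by duplicate genes (Prosalpha4T1, Prosalpha4T2, Prosbeta2R1, Prosbeta2R2, Prosbeta4R2, Prosbeta5R1, Rpt3R, Rpt4R and Rpn13R), several of which are known as testis forms. Of the other 23 proteasome probes, 6 were tested. Whether variant and other subunits differed in this was not tested. In the signalosome, CSN1b, CSN4, CSN6 and CSN7 had no value, and a further CSN8 probe, at spot 19951, had a log2 ratio of 0.36 in replicate 3 and -0.10 in replicate 4 only. Among the deubiquitinases, Usp2, Usp5, Usp7, Usp8, Usp14, CG4165 (a Usp gene given here by its CG identifier), Usp20-33, Usp30, Usp32 and Usp39 had none. The remaining unmeasured genes were Prosalpha2 to Prosalpha6, Prosbeta4 and Prosbeta7 of the core, and Rpn2, Rpn3, Rpn5, Rpn7, Rpn8, Rpn13, Rpt2 and Rpt4 of the regulatory particle.

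None of the 16 tested members passed the threshold of 0.05 on limma's adjusted p, where 0.635% of all tested probes passed. At an unadjusted p under 0.05 there was 1 member, a trbd probe, against 8.98% of all tested probes. The median log2 ratio of the 16 members was 0.09, with 10 above 0, and that of all tested probes was 0.03, with 55.8% above 0. The members' median was 0.0035 without replicate 3 and 0.049 without replicate 4, so it rested on those arrays. In the same settings the median of all tested probes was -0.040 and 0.024. By array the members' medians were -0.04, -0.07, 0.31 and 0.13 in replicates 1 to 4, negative in replicates 1 and 2 and positive in replicates 3 and 4, as were the medians of all probes. The typical size was also alike: the median distance from 0 was 0.14 in the members and 0.14 in all tested probes.

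**Figure D2:**
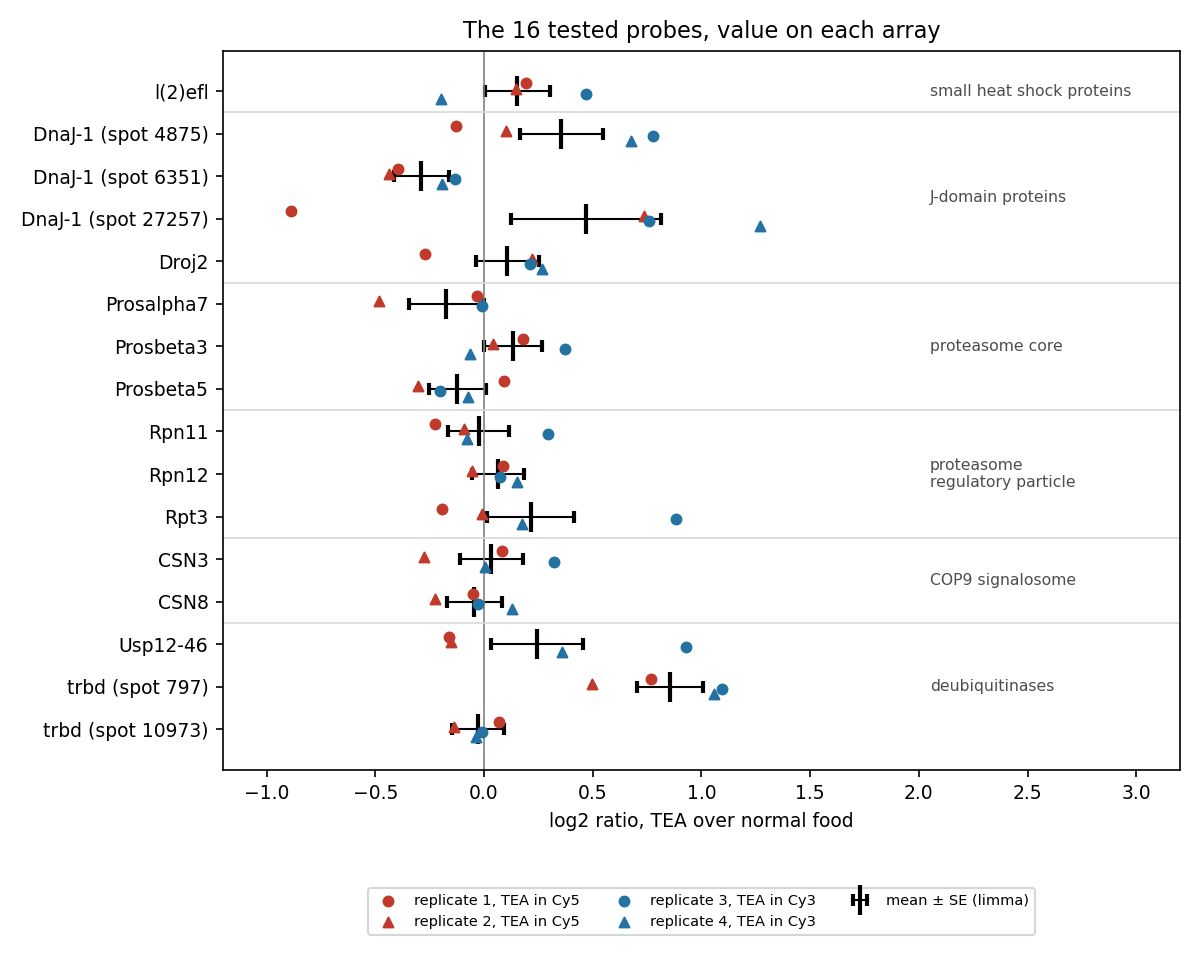
Log2 ratio of TEA over normal food on each array for the 16 tested probes, grouped by class. Red marks are the Cy5 arrays, blue marks the Cy3 arrays, and the black line is the mean with its standard error. Only the trbd probe at spot 797 lies above 0.4 on all 4 arrays.

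The smallest p among the members belonged to trbd (trabid), a deubiquitinase of the ovarian tumour (OTU) family, known in flies from immune and Wingless signalling. Its probe at spot 797 had log2 ratios of 0.77 and 0.50 on the Cy5 arrays and 1.09 and 1.06 on the Cy3 arrays. All 4 arrays showed more signal with TEA, and both duplicate spots of every array did so, from 0.475 to 1.18. The mean was 0.86 ± 0.15 (SE, n = 4; limma adjusted p = 0.100), a 1.81-fold ratio with a 95% interval from 1.41 to 2.33, and it ranked 34th by p among all tested probes. It therefore missed the threshold over all probes.

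A further trbd probe, at spot 10973, showed none of this. Its values were 0.07, -0.14, -0.01 and -0.04 in replicates 1 to 4, with a mean of -0.03 ± 0.12 (SE, n = 4; limma adjusted p = 0.977). The 95% interval of that mean ran from -0.32 to 0.26. The difference between the probes, spot 797 minus spot 10973, was 0.70, 0.64, 1.10 and 1.10 in replicates 1 to 4, a mean of 0.88 ± 0.25 (SD, n = 4), of 1 sign on every array. The two-sided exact sign-flip permutation test gave p = 0.125, the smallest that 4 arrays allow, and 0.25 after adjustment over the 4 pairs of probes compared within trbd and DnaJ-1. Which part of the transcript each probe covers is not given in the sources used here. Averaged over both probes, trbd stood at 0.41 ± 0.14 (SE, n = 4; limma adjusted p = 0.320).

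The position before spot 797 in the table belonged to apolpp, made in fat body, whose product carries lipids in the haemolymph. That apolpp probe had 0.81, 0.72, 1.72 and 0.94 in replicates 1 to 4, so both positions lay above 0 on all 4 arrays. An apolpp probe elsewhere in the table, at spot 14881, stood at 0.54, 0.63, 0.64 and 0.27. The next position after spot 797 had no value, and the one before spot 10973 averaged 0.02. Of the 5 tested fat body probes, 4 lay above 0, with means from -0.0011 for Lsp2 to 1.05 for apolpp. Whether the neighbouring position or fat body content played a part in the trbd value was not tested.

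DnaJ-1, the main heat-inducible J-domain partner of Hsp70, had 8 probes, of which 3 were tested and 5 had no value. The 3 did not agree in sign. The probe at spot 4875 had -0.13 and 0.10 on the Cy5 arrays and 0.78 and 0.67 on the Cy3 arrays, a mean of 0.36 ± 0.19 (SE, n = 4; limma adjusted p = 0.723). The probe at spot 6351 lay below 0 on all arrays, at -0.40, -0.44, -0.13 and -0.20, with a mean of -0.29 ± 0.13 (SE, n = 4; limma adjusted p = 0.595). The probe at spot 27257 had -0.89 in replicate 1 and 0.74, 0.76 and 1.27 in replicates 2 to 4, so 1 array opposed the other 3, and its mean of 0.47 ± 0.34 (SE, n = 4; limma adjusted p = 0.813) was 0.92 without replicate 1 and 0.20 without replicate 4.

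Duplicate spots of these DnaJ-1 probes had the same sign on each array, except at spot 6351 in replicate 3, with 0.004 and -0.268. That probe's spots also lay apart in replicate 1, at -0.242 and -0.549, and in replicate 4, at -0.356 and -0.034. At spot 27257 the 2 spots read -0.94 and -0.84 in replicate 1 and 1.44 and 1.10 in replicate 4. The probe at spot 4875 exceeded that at spot 6351 on all arrays, by 0.65 ± 0.30 on average (SD, n = 4; exact sign-flip p = 0.125, the smallest possible, adjusted 0.25). The probe at spot 6351 minus that at 27257 gave -0.76 ± 0.87 (SD, n = 4; exact p = 0.25, adjusted 0.333), and spot 4875 minus spot 27257 gave -0.11 ± 0.65 (SD, n = 4; exact p = 1, adjusted 1). No direction for DnaJ-1 can be read from these values.

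**Figure D3:**
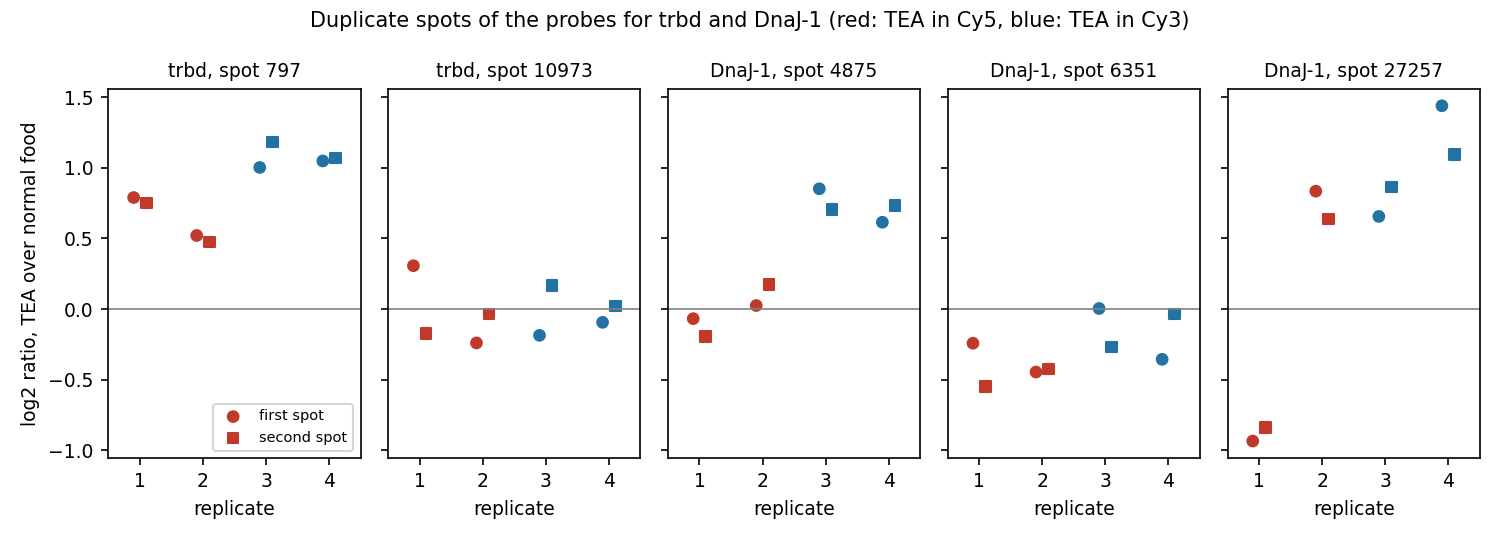
Log2 ratio of TEA over normal food on each array (horizontal axis: replicate) for both duplicate spots of the 2 trbd probes and the 3 DnaJ-1 probes; red marks the Cy5 arrays and blue the Cy3 arrays. Both trbd spots at 797 lie between 0.475 and 1.18, whereas those at 10973 scatter around 0, and the DnaJ-1 probe at 6351 lies lower than the one at 4875.

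Droj2, a J-domain protein of the class that carries substrates to Hsp70, had -0.27 in replicate 1 and 0.22, 0.21 and 0.27 in replicates 2 to 4. Its mean was 0.11 ± 0.14 (SE, n = 4; limma adjusted p = 0.877). The small heat shock protein l(2)efl, of the alpha-crystallin family, had 0.19, 0.15, 0.47 and -0.20 in replicates 1 to 4, above 0 on 3 of 4 arrays. Its mean was 0.15 ± 0.15 (SE, n = 4; limma adjusted p = 0.853), with a 95% interval from 0.87-fold to 1.43-fold. Together the 5 tested chaperone probes, 3 of them for DnaJ-1, had a median of 0.15. That median was -0.02 on the Cy5 arrays and 0.24 on the Cy3 arrays. Of the 5, 4 lay above 0, as did 55.8% of all tested probes.

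The proteasome core was represented by 3 tested subunits, and none passed the threshold. Prosbeta5, which carries the chymotrypsin-like activity, had 0.09, -0.31, -0.20 and -0.08 in replicates 1 to 4, with a mean of -0.12 ± 0.13 (SE, n = 4; limma adjusted p = 0.872). In replicate 3 its 2 spots disagreed, at -0.83 and 0.43, the widest gap among the 63 spot pairs of tested members, whose median gap was 0.117. Prosbeta3, a subunit of the inner ring without a catalytic site, had 0.18, 0.04, 0.37 and -0.06, with a mean of 0.13 ± 0.13 (SE, n = 4; limma adjusted p = 0.860). Prosalpha7, of the outer ring, had -0.03, -0.48 and -0.0080 in replicates 1 to 3 and no value in replicate 4. Its mean over these 3 arrays was -0.17 ± 0.17 (SE, n = 3; limma adjusted p = 0.862), in which the dye orientations were not balanced.

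The regulatory particle was represented by Rpn11, Rpn12 and Rpt3. Rpn11, the metalloprotease that strips ubiquitin from substrates entering the core, had -0.23, -0.09, 0.30 and -0.08 in replicates 1 to 4 and a mean of -0.02 ± 0.14 (SE, n = 4). Rpn12, a subunit of the lid, had 0.09, -0.06, 0.07 and 0.15 in replicates 1 to 4, with a mean of 0.06 ± 0.12 (SE, n = 4). Rpt3, an ATPase of the ring that unfolds substrates, had -0.19 and -0.0075 on the Cy5 arrays and 0.88 and 0.18 on the Cy3 arrays. Its mean of 0.21 ± 0.20 (SE, n = 4; limma adjusted p = 0.842) became -0.0075 without replicate 3, so that array set the sign.

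Across all 6 proteasome probes the limma adjusted p lay between 0.842 and 0.982. Their median was 0.02, against 0.03 for all tested probes, and 3 lay above 0. The 95% intervals of all 6 included equal levels. The lowest bound was 0.65-fold, for Prosalpha7 with 3 arrays, and the highest 1.62-fold, for Rpt3.

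The signalosome probes lay near 0 as well. CSN3 had 0.08, -0.27, 0.32 and 0.0065 in replicates 1 to 4 and a mean of 0.03 ± 0.14 (SE, n = 4; limma adjusted p = 0.977). CSN8, one of the small subunits, had -0.05, -0.23, -0.03 and 0.13 at spot 53 and a mean of -0.04 ± 0.13 (SE, n = 4; limma adjusted p = 0.958). Both intervals together ran from 0.79-fold to 1.30-fold.

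CG7023 (the gene's CG identifier in RefSeq) was the only tested gene with a Usp symbol, which the plots print. It removes ubiquitin from membrane receptors and their regulators, and in Caenorhabditis elegans its homologue acts on a glutamate receptor. Its values were -0.16 and -0.15 on the Cy5 arrays and 0.93 and 0.36 on the Cy3 arrays, so the sign followed the dye orientation. The mean was 0.24 ± 0.21 (SE, n = 4; limma adjusted p = 0.833), and it was 0.0145 without replicate 3.

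The split by dye orientation ran through most members. Of the 16, 14 had a higher mean on the Cy3 than on the Cy5 arrays, as did 72.4% of all tested probes. The members' median was -0.09 on the Cy5 arrays and 0.15 on the Cy3 arrays, close to the -0.10 and 0.15 of all tested probes. As deposited, the medians over all spots with a value were -0.09, -0.08, -0.25 and -0.05 in replicates 1 to 4. All were negative, so turning replicates 3 and 4 in sign made theirs positive. The orientations were also replicates 1 and 2 against 3 and 4, so dye and replicates cannot be told apart. A dye term in the fit passed the adjusted threshold for 0 members and for 0 of 3150 probes by limma. At an unadjusted p under 0.05 it marked 2 members, against 16.1% of all tested probes: the DnaJ-1 probe at spot 4875, with -0.02 on the Cy5 and 0.73 on the Cy3 arrays (a difference, Cy5 minus Cy3, of -0.74 ± 0.20, SE), and CG7023, with -0.16 on the Cy5 and 0.64 on the Cy3 arrays (-0.80 ± 0.26, SE). The trbd probe at spot 797 kept its sign in both orientations, with 0.63 ± 0.13 on the Cy5 arrays and 1.08 ± 0.25 on the Cy3 arrays (SE, n = 2 each). Neither orientation alone called a member, while 0.0963% of all probes passed on the Cy5 arrays and 0.0395% on the Cy3 arrays. Of the 16 members, 3 had 1 sign on every array with a value: the trbd probe at spot 797, the DnaJ-1 probe at spot 6351 and Prosalpha7. Prosalpha7 had a value on only 3 arrays, and its duplicate spots differed in sign in replicates 1 and 3. The share with 1 sign over all tested probes was 18.4%, which is close to that of the members, 18.8%.

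**Figure D4:**
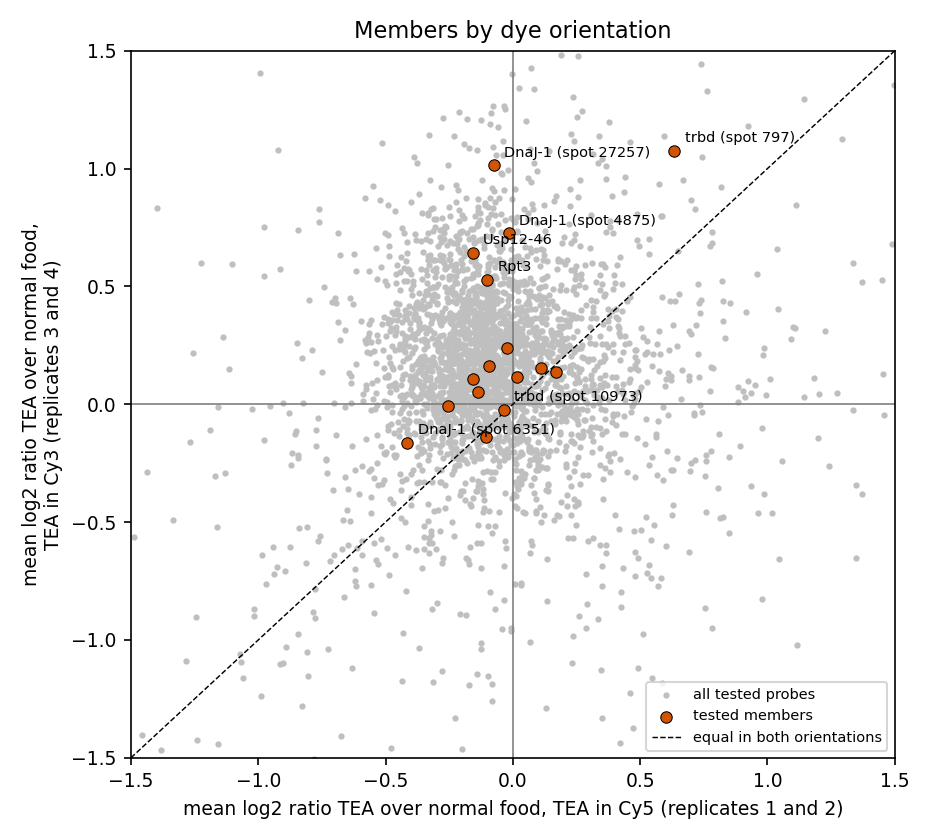
Mean log2 ratio of TEA over normal food on the Cy3 arrays (vertical axis) against the Cy5 arrays (horizontal axis); orange points are the 16 tested members, grey points all tested probes within 1.5 of 0 on both axes (73 lie outside), and the dashed line marks equal values. CG7023, Rpt3 and 2 DnaJ-1 probes lie high on the vertical axis only, while the trbd probe at spot 797 lies high on both.

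Genes that work with these machines were read from 8 lists of partners. Of 141 listed genes, 22 had a tested probe, 24 probes in all, and none passed the threshold (0 higher, 0 lower; 0 at an unadjusted p under 0.05 by limma). Over all tested probes 0.635% passed the threshold and 8.98% had an unadjusted p under 0.05 by limma. The median of the 24 partner probes was -0.04, with 11 above 0. For all tested probes it was 0.03, with 55.8% above 0. Of 17 listed cullin ligase genes, 9 were on the array with 11 probes, and none had a value. Among all probes naming 1 gene, 19.4% had a value on any array.

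Among the 7 tested co-chaperones the smallest p belonged to p23, which steadies Hsp90 with its clients. It had -0.0080 and 0.15 on the Cy5 arrays and 1.32 and 0.56 on the Cy3 arrays, a mean of 0.51 ± 0.24 (SE, n = 4; limma adjusted p = 0.644). Fkbp59, an immunophilin that binds Hsp90, lay below 0 on its 3 arrays, at -0.55, -0.17 and -0.14 in replicates 1 to 3, with a mean of -0.29 ± 0.17 (SE, n = 3; limma adjusted p = 0.768). The means of these Hsp90 partners lay on opposite sides of 0, and p23 had its high values in 1 dye orientation. The mean of Fkbp59 lacked replicate 4, so its dye orientations were not balanced.

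In the endoplasmic reticulum 5 genes were tested with 7 probes. The calnexin gene Cnx99A, a lectin chaperone of glycoproteins, had 1 probe at -0.96, -1.55 and 0.22 in replicates 1 to 3 (spot 5851, mean -0.77 ± 0.35, SE, n = 3; limma adjusted p = 0.660) and another at -0.40, -0.29, 0.64 and 0.76 (spot 25211, mean 0.18 ± 0.24, SE, n = 4). Both were negative on the Cy5 arrays and positive where measured on the Cy3 arrays. The mean at spot 5851 lacked replicate 4, so its dye orientations were not balanced. Atf6, a sensor of unfolded protein, had -0.26, 0.13, 1.52 and 0.60 at spot 24793 (mean 0.50 ± 0.29, SE, n = 4; limma adjusted p = 0.761), and its probe at spot 26143 gave a similar series, -0.42, -0.15, 1.29 and 0.56. Replicate 3 was the highest array of both.

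Of the ubiquitin genes, the polyubiquitin gene Ubi-p63E lay above 0 on all arrays, at 0.10, 0.16, 0.35 and 0.38 (mean 0.25 ± 0.12, SE, n = 4; limma adjusted p = 0.697). The other polyubiquitin gene, Ubi-p5E, had 0.37, 0.16, 0.31 and -0.25 (mean 0.15 ± 0.15, SE, n = 4; limma adjusted p = 0.862). Both missed the threshold. Duba, the only tested gene among the other deubiquitinases and of the OTU family like trbd, had -0.08, 0.12, 0.68 and 0.58 (mean 0.33 ± 0.17, SE, n = 4; limma adjusted p = 0.713).

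The proteasome activator REG stood at -0.17 ± 0.13 and the shuttle factor rngo, which brings ubiquitinated proteins to the proteasome, at -0.09 ± 0.18 (SE, n = 4 each). In autophagy, the protease Atg4a stood at -0.24 ± 0.15 (SE, n = 3) and ref(2)P, the fly p62 receptor that delivers ubiquitinated aggregates, at -0.03 ± 0.15 (SE, n = 4). The prefoldin subunit Pfdn6, from the complex that passes unfolded actin and tubulin to CCT, stood at 0.08 ± 0.20 (SE, n = 3). For these 5 genes the limma adjusted p was at least 0.790. Atg4a and Pfdn6 had no value in replicate 4, so their dye orientations were not balanced.

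**Figure D5:**
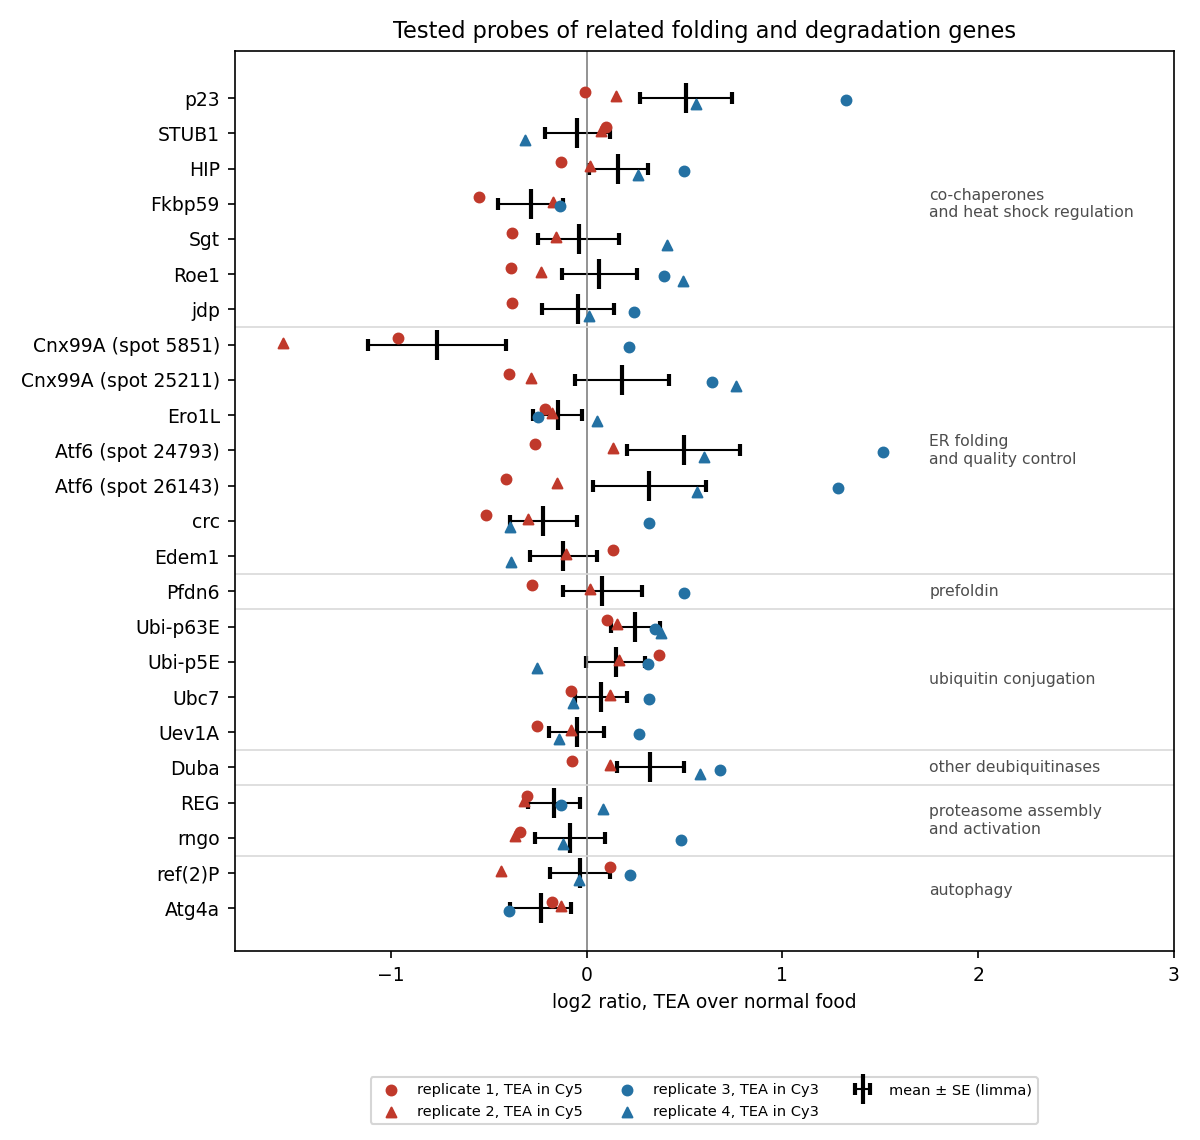
Log2 ratio of TEA over normal food on each array for the 24 tested partner probes, by list; red marks the Cy5 arrays, blue the Cy3 arrays, and the black line the mean with its standard error. Cnx99A and Atf6 have their red marks left of their blue ones, and Ubi-p63E has all 4 marks right of 0.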

How the data were processed

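RNA from fly heads was hybridised to 4 cDNA arrays. The authors quantified scans with GenePix Pro 6.0, normalised ratios in Acuity 4.0 and emptied spots that failed filters on saturation, flags, pixel regression and signal-to-noise ratio, per the labels' design text. The authors deposited 1 column of log2 ratios for each array, in which 8 values at the ceiling of 16.61 were set to missing here. Precision is limited by the number of arrays, and scanner signals were not used here.

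The 2 neighbouring spots of a probe were averaged and replicates 3 and 4 turned in sign. Probes measured on 3 or 4 arrays were tested against 0 with limma 3.58.1 in R 4.3.3 (intercept only, two-sided, Benjamini-Hochberg over all 3150 probes, threshold 0.05), after a check on simulated data. Errors are standard errors of that moderated fit unless SD is stated. Replicates are pools from separate vials. Symbols come from the platform annotation, matched with case kept, and 84 of 85 member probes carried the same symbol in the RefSeq table of Release 6; the other names 2 genes. The members and lists were chosen with earlier results of these data known. All tested members are named; per-array values are given for them, and for the 2 partner probes with the smallest p in the lists of co-chaperones, endoplasmic reticulum genes and ubiquitin genes and for Duba. The second probes of Cnx99A and Atf6 were added outside that rule, after their values were seen. Alternatives changed centring, scale, dye term, filter, spots, moderation and arrays.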

Additional observations from a re-analysis of the deposited data

Results flagged for a closer look

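Among 37 sets of 4 array values (member probes, partner probes and class medians), 1 had an array far from the other 3. The Droj2 probe stood at -0.27 in replicate 1, and the gap to the nearest other array took up 0.895 of its whole range, above Dixon's 95% critical value for 4 samples. Chance alone marks about 0.05 of such sets.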

How the results depend on the processing

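No alternative called a member or a partner probe with limma. The smallest adjusted p of a member was 0.0544, for the trbd probe at spot 797 with arrays centred and scaled. Where the trbd probes were kept apart and the swapped arrays turned, that probe stayed between 0.63 and 1.08 (limma adjusted p from 0.0544 to 0.826). Over 238 member values under other settings, 212 kept their direction and none crossed the threshold. Part of these could not change sign, since keeping ceiling values, other moderation or each spot on its own left every member mean as it was. A dye term or a filter for 4 arrays did so for probes with 4 values, and gene averaging for genes with 1 tested probe. Settings that called no probe at all, given below, add nothing on members in particular. Only l(2)efl and Prosalpha7 never changed sign, Prosalpha7 having no value with 4 arrays required or on the Cy3 arrays alone. The cause of the changes below was not tested.

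With the swapped arrays not turned, the log2 ratio was -0.22 for the trbd probe at spot 797, -0.37 and -0.54 for the DnaJ-1 probes at spots 4875 and 27257, -0.40 for CG7023, -0.31 for Rpt3, -0.13 each for Droj2 and CSN3, -0.049 for Rpn12, -0.023 for Prosbeta3 and 0.016 for Prosbeta5, and the medians were -0.25 for J-domain proteins, -0.22 for deubiquitinases and -0.13 for all tested members. On the Cy5 arrays alone it was -0.16 for CG7023, -0.10 for Rpt3 and for CSN3, -0.075 and -0.0155 for the DnaJ-1 probes at spots 27257 and 4875 and -0.023 for Droj2. On the Cy3 arrays alone it was 0.11 for Rpn11 and 0.0505 for CSN8. With arrays centred and scaled CSN3 stood at -0.0044. With probes of a gene averaged, DnaJ-1 stood at 0.18 and trbd at 0.41. Leaving out 1 array at a time gave -0.10 to 0.0165 for CSN8, -0.0615 to 0.14 for CSN3, -0.061 to 0.0077 for the trbd probe at spot 10973, -0.0075 to 0.35 for Rpt3 and -0.13 to 0.042 for Rpn11. Without a change of sign it gave 0.047 to 0.27 for l(2)efl, -0.26 to -0.019 for Prosalpha7, -0.19 to -0.061 for Prosbeta5, 0.052 to 0.20 for Prosbeta3, 0.035 to 0.10 for Rpn12, 0.055 to 0.23 for Droj2, 0.0145 to 0.38 for CG7023, and 0.21 to 0.52 and 0.20 to 0.92 for the DnaJ-1 probes at spots 4875 and 27257. The members' median lay between 0.0035 (without replicate 3) and 0.12 (without replicate 2).

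Over all probes limma called 20. It called 0 with the swapped arrays not turned (353 at an unadjusted p under 0.05), with centred arrays (309), with a dye term (427), with trend and robust moderation (102) and with each spot on its own (497). It called 3 on the Cy5 arrays alone, 1 on the Cy3 arrays alone and 12 genes with probes averaged. Without 1 array it called between 0 (without replicate 2 or 4) and 4 (without replicate 1). The fit over the 4 within-array ratios is itself paired. Beyond it, no paired analysis was possible because 1 ratio per replicate leaves no second value for a replicate block.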
